A study of Arabidopsis thaliana with 12 samples.

Results

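The genes described here encode the enzymes that make jasmonate, chosen by name along the textbook pathway: the lipoxygenases LOX2, LOX3 and LOX4, the allene oxide synthase AOS, the allene oxide cyclases AOC1, AOC2, AOC3 and AOC4, the reductase OPR3 and the conjugating enzyme JAR1. They are 10 of the 25729 genes in the table. The rule that chose them uses no measured value, but it was set with earlier results of these data known. Their transcripts were read by RNA sequencing of Arabidopsis thaliana seedlings, taken whole at 10 days of age, from 2 genotypes at 2 times of day. The groups were tic-2 at postdusk (ZT12), Col-0 at postdusk, tic-2 at predawn (ZT0) and Col-0 at predawn, each with 3 libraries. The tic-2 plants are mutant for the clock-associated gene TIC (TIME FOR COFFEE), and Col-0 is the wild-type accession. All plants were grown at 22 °C under conditions labelled LD on MS medium with 3% sucrose, and each library came from whole seedlings with no tissue separated. The series title links TIC with hypocotyl growth and phytochrome A signalling.

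Jasmonate is a lipid-derived hormone of wounding, insect defence and stamen development. Plastid lipoxygenases oxidise linolenic acid, AOS turns the product into an unstable allene oxide, and the cyclases close its ring to give OPDA. OPDA moves to the peroxisome, where OPR3 reduces it and beta-oxidation shortens it to jasmonic acid, and JAR1 then joins jasmonic acid to isoleucine to make the form that the receptor COI1 binds together with JAZ repressors. Several synthesis genes are themselves induced by jasmonate, and the pathway is known to be gated by the circadian clock in Arabidopsis.

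Values are FPKM, read fragments scaled to transcript length and to library depth, as deposited. The 3 libraries of a group are lettered A, B and C, and values are given in that order. The labels do not say whether a letter marks a batch shared between groups. The titles number the libraries of a group bio1, bio2 and bio3 but do not say whether each came from a separate planting or harvest, so p-values measure the spread between these libraries. Pairs of libraries within a group differed by more than read sampling gives, the chi-square of their recovered reads averaging 6.55 to 46.3 over genes. Library depth recovered from the FPKM values was 19255016 to 21750334 reads, and libraries of a group correlated at Pearson's r between 0.966 and 0.992 over genes. TIC itself was at 70.9, 62.2 and 106 FPKM in tic-2 at postdusk and at 61.9, 57.5 and 63.1 FPKM in Col-0. At predawn it was at 63.9, 70.1 and 98.4 FPKM in tic-2 and at 52.1, 56.6 and 56.0 FPKM in Col-0. Because the labels do not say what the tic-2 mutation does to the transcript, the TIC level is no check of genotype. The clock gene CCA1, which peaks around dawn in the wild type, averaged 60.6 FPKM at postdusk and 180 FPKM at predawn in tic-2. In Col-0 it averaged 0.748 FPKM at postdusk and 259 FPKM at predawn, the order known for the wild type.

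AOC1, AOC2 and AOC3 stand next to each other on chromosome 3 on the plus strand, and their upstream sequences are shown because these 3 neighbours differ widely in their levels and time of day response below. The 250 bases before the annotated start in RefSeq (build TAIR10.1) lie at chr3:9403529-9403778 for AOC1, chr3:9406419-9406668 for AOC2 and chr3:9408910-9409159 for AOC3. Capitals mark a stretch of 19 bases that AOC1 and AOC2 share. It lies 117 to 99 bases before the annotated start of AOC1 and 19 to 1 bases before that of AOC2.
AOC1: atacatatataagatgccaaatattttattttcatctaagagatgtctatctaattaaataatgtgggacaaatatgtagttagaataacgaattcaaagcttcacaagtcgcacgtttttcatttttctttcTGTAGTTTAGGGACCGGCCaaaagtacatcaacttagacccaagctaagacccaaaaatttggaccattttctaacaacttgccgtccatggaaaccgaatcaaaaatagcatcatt
AOC2: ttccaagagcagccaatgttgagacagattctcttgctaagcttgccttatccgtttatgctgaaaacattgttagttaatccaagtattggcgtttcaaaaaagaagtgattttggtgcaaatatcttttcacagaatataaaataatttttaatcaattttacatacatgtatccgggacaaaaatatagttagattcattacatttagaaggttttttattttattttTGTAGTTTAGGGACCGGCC
AOC3: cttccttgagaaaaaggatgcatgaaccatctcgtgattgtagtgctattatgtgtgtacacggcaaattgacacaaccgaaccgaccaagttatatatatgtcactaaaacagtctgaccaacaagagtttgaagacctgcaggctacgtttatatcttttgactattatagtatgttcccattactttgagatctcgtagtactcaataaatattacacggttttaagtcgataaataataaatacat
The AOC3 window is printed without capitals because the shared stretch was not found in it.

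The same windows of the 10 genes were searched on both strands for 4 short motifs known from clock, light and defence promoters in plants. The G-box CACGTG was found in the window of AOS (chr5:17099596-17099845, minus strand), 6 bases before the annotated start. The evening element AAAATATCT, a motif of evening-phased genes, was found in that of LOX3 (chr1:5977073-5977322, plus strand), 84 bases before the start. The W-box form TTGACC was found on the opposite strand of the LOX2 window (chr3:16524995-16525244, plus strand), 78 bases before the start. Other forms of the W-box were not searched. In the lines below, written 5′ to 3′ on each gene's strand, capitals mark the motif.
AOS: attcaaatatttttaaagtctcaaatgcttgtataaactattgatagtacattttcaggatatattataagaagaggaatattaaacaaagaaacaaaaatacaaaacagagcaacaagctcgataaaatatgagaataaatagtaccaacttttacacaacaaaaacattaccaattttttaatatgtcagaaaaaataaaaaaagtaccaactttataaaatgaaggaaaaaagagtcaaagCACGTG
LOX3: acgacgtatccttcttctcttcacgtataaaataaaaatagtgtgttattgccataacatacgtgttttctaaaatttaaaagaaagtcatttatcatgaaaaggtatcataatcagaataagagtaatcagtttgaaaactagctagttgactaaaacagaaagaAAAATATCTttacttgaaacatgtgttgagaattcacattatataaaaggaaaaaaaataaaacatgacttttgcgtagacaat
LOX2: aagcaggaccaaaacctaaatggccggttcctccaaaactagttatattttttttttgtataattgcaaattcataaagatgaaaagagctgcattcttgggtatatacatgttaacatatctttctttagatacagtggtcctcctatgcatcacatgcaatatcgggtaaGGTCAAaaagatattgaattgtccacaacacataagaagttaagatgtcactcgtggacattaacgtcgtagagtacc
Over the 19141 tested genes with such a window, 7.59% held the G-box, 2.47% the evening element and 11.9% the W-box form TTGACC. The CCA1-binding site AAAAATCT was in the window of 6.73% of genes and of 0 of the 10 members. Each match lay in the window of a different gene, so none overlapped another. These matches are letters in a window, and binding was not measured.

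Of the 10 members, 7 rose at postdusk relative to predawn in tic-2 and 8 in Col-0, and none fell in either genotype. Tests were made on log2(FPKM + 1) with limma over 19274 genes, all 10 members among them, with p-values adjusted over all of these genes and called under 0.05. Over all tested genes 18.5% were called higher at postdusk in tic-2 and 22.7% in Col-0, and 37.9% in tic-2 and 37.1% in Col-0 were called in either direction. LOX2, LOX3, LOX4, AOS, AOC1, AOC2 and OPR3 rose in both genotypes, and JAR1 was called in Col-0. The median log2 fold change of the members was 1.56 in tic-2 and 1.68 in Col-0, against -0.05 in tic-2 and 0.05 in Col-0 over all tested genes. The 3 postdusk libraries lay above all 3 predawn libraries for 7 of 10 members in tic-2, as for 21.0% of all genes, and for 9 of 10 in Col-0, as for 34.9%. Summed over the members, levels were 1107 ± 240 FPKM in tic-2 and 1613 ± 188 FPKM in Col-0 at postdusk, and 262 ± 44.9 FPKM in tic-2 and 245 ± 25.1 FPKM in Col-0 at predawn (SD, n = 3 each). In whole seedlings, a change in the number of expressing cells and a change in RNA per cell cannot be told apart.

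**Figure D1:**
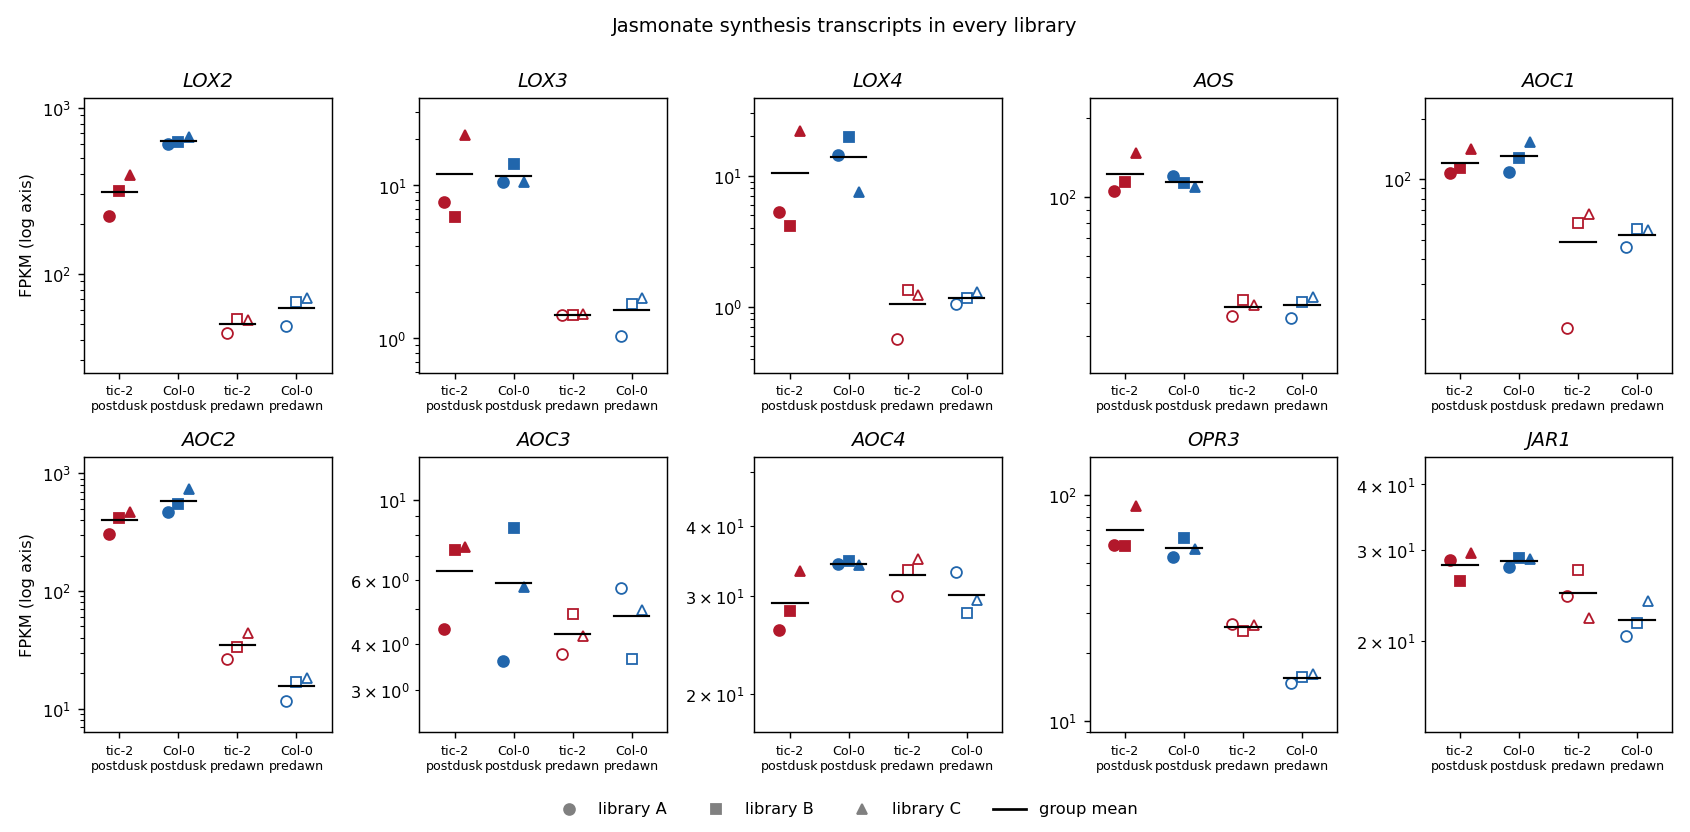
FPKM on a log axis for each of the 10 members (panels) in tic-2 (red) and Col-0 (blue) libraries at postdusk (filled) and predawn (open); symbols give the library letter and bars the mean of 3 libraries. AOC2 and LOX2 reach the highest levels at postdusk in both genotypes, while AOC3, AOC4 and JAR1 span less than the other members.

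Between genotypes the pattern was narrower. At predawn AOC2 and OPR3 were higher in tic-2, 2 of 10 members, where 13.1% of all tested genes were called higher and 27.7% in either direction. At postdusk LOX2 was lower in tic-2, 1 of 10 members, where 19.8% of all tested genes were called lower and 29.5% in either direction. The 2 genotypes' libraries did not overlap for 2 of 10 members at predawn and 2 of 10 at postdusk, where 44.7% and 46.8% of all genes did not. In calls in either direction and in non-overlap, the members' shares were no higher than those of all genes. The median log2 fold change was -0.0319 for the members and -0.0297 for all tested genes at predawn, and at postdusk both were -0.12 when rounded to 2 decimals.

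**Figure D2:**
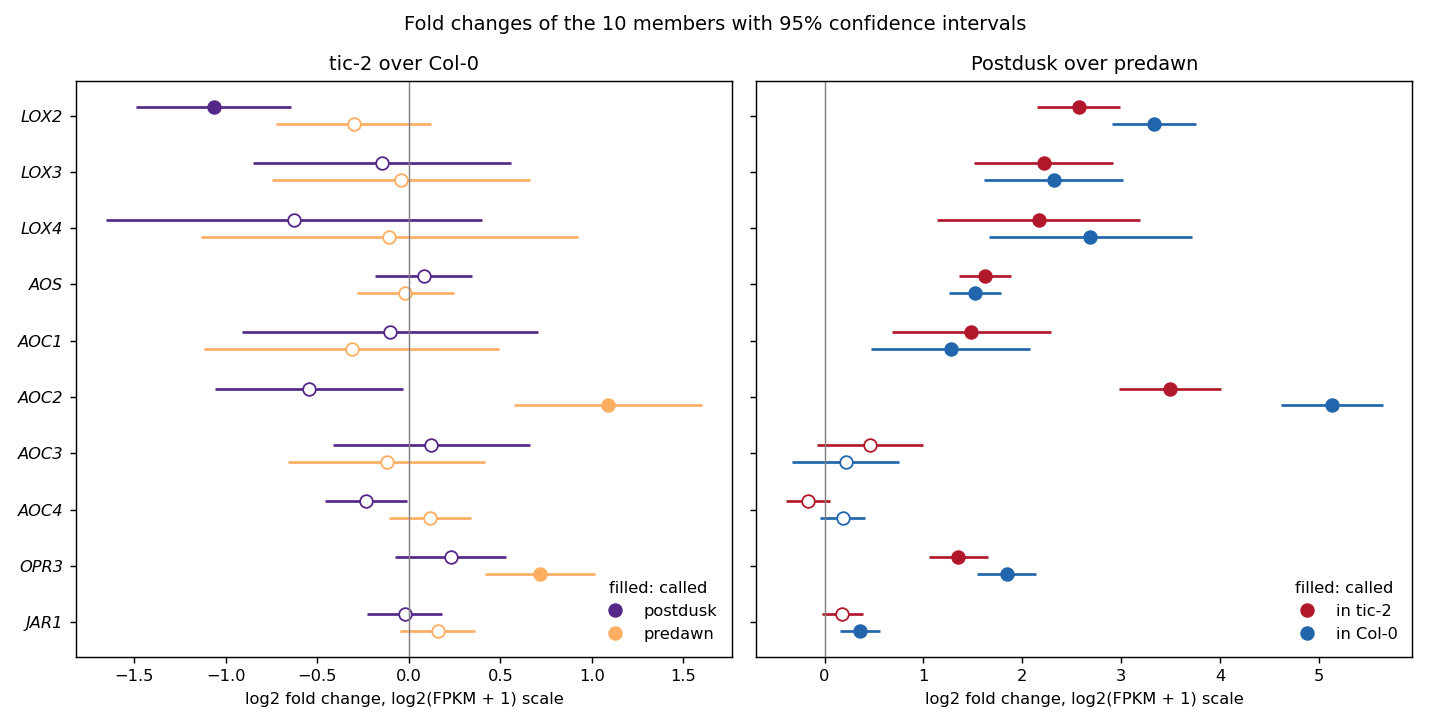
Log2 fold changes on the log2(FPKM + 1) scale of the 10 members with 95% confidence intervals; left, tic-2 over Col-0 at postdusk and at predawn; right, postdusk over predawn in tic-2 and in Col-0; filled points are called at an adjusted p under 0.05. On the left LOX2 at postdusk and AOC2 and OPR3 at predawn are filled; on the right all but AOC3 and AOC4, and JAR1 in tic-2, are filled.

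LOX2 (AT3G45140, chr3:16525245-16529352), the main lipoxygenase of jasmonate synthesis in wounded leaves, was at 221, 315 and 391 FPKM in tic-2 and at 606, 620 and 668 FPKM in Col-0 at postdusk. All 3 tic-2 libraries lay below all 3 Col-0 libraries. The ratio of the means was 0.489, with a log2 fold change of -1.07 (SE 0.19, 95% confidence interval -1.49 to -0.64, limma adjusted p 0.00249). At predawn LOX2 was at 43.6, 53.6 and 52.9 FPKM in tic-2 and at 48.3, 67.7 and 71.5 FPKM in Col-0, and the groups overlapped (log2 fold change -0.30, limma adjusted p 0.281). LOX2 rose at postdusk over predawn by 2.57 in tic-2 and 3.33 in Col-0 on the log2 scale. The difference between those time effects, tic-2 minus Col-0, was -0.76 on the log2 scale and was not called (limma adjusted p 0.0848).

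LOX3 (AT1G17420, chr1:5977323-5981521) and LOX4 (AT1G72520, chr1:27308513-27312756) are a closely related pair of lipoxygenases with known roles in male fertility. Their coding sequences matched at 80.7% of aligned bases, while that of LOX2 matched LOX3 at 59.4%. LOX3 was at 7.80, 6.26 and 21.5 FPKM in tic-2 and at 10.5, 13.7 and 10.5 FPKM in Col-0 at postdusk. Its predawn levels were 1.42, 1.42 and 1.44 FPKM in tic-2 and 1.04, 1.68 and 1.85 FPKM in Col-0. Every postdusk library of LOX3 stood above every predawn library, and LOX3 rose 8.31-fold in tic-2 and 7.58-fold in Col-0. Without library C of tic-2 at postdusk its log2 time effect in tic-2 was 1.72, against 2.22 with it and 2.32 in Col-0, and it was still called. LOX4 was at 5.24, 4.14 and 21.9 FPKM in tic-2 and at 14.4, 19.7 and 7.52 FPKM in Col-0 at postdusk. At predawn it was at 0.564, 1.33 and 1.22 FPKM in tic-2 and at 1.04, 1.17 and 1.29 FPKM in Col-0. LOX4 rose 10.0-fold in tic-2 and 11.9-fold in Col-0, and library C of tic-2 at postdusk held by far the highest LOX3 and LOX4 levels of its group. Without it the log2 time effect of LOX4 in tic-2 was 1.49, against 2.17 with it, and it was still called. LOX2 made up 93.7 ± 3.44% of the summed FPKM of the 3 lipoxygenases in tic-2 and 96.1 ± 1.24% in Col-0 at postdusk, and 95.3 ± 0.278% in tic-2 and 95.9 ± 0.0808% in Col-0 at predawn (SD, n = 3 each).

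AOS (AT5G42650, chr5:17097564-17099595), the only allene oxide synthase gene of Arabidopsis, was at 106, 114 and 147 FPKM in tic-2 and at 120, 114 and 110 FPKM in Col-0 at postdusk. Predawn levels were 35.8, 41.1 and 39.2 FPKM in tic-2 and 35.2, 40.4 and 42.2 FPKM in Col-0. The genotypes overlapped at both times, and AOS rose at postdusk 3.17-fold in tic-2 (limma adjusted p 1.33e-06) and 2.92-fold in Col-0 (limma adjusted p 1.74e-06). The 95% confidence interval of its log2 genotype difference was -0.18 to 0.35 at postdusk and -0.28 to 0.24 at predawn.

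AOC2 (AT3G25770, chr3:9406669-9408071) showed the widest span of the 10 members, and the span of its group means was wider than that of 99.9% of tested genes. At postdusk it was at 308, 420 and 471 FPKM in tic-2 and at 466, 547 and 742 FPKM in Col-0. Its predawn values were 26.3, 33.7 and 43.9 FPKM in tic-2 and 11.7, 17.0 and 18.4 FPKM in Col-0. The genotypes thus stood in opposite order at the 2 times, without overlap at predawn and with overlap at postdusk. At predawn AOC2 was 2.21-fold higher in tic-2 by the ratio of means, with a log2 fold change of 1.09 (SE 0.24, 95% confidence interval 0.58 to 1.60, limma adjusted p 0.00461). At postdusk the log2 fold change was -0.55 (95% confidence interval -1.06 to -0.03) and was not called (limma adjusted p 0.1). AOC2 rose 11.5-fold at postdusk over predawn in tic-2 and 37.3-fold in Col-0. The difference of these time effects, tic-2 minus Col-0, was -1.63 on the log2 scale (SE 0.33, limma adjusted p 0.00553).

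Among the 10 members AOC2 was the only one whose time effect was called different between genotypes, where 8.59% of all tested genes were called with a smaller value in tic-2, 7.28% with a larger one and 15.9% in either direction. Without library C of tic-2 at postdusk 4 members were called, all with a smaller value in tic-2: AOC2, LOX2, AOC4 and OPR3. Their log2 differences of time effects were then -1.76, -0.95, -0.45 and -0.68 (limma adjusted p 0.00527, 0.0213, 0.0316 and 0.00326). The share of all tested genes called in that fit is not given here, so the count of 4 is not read as a result about the members.

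AOC1 (AT3G25760, chr3:9403779-9405338) was at 107, 114 and 141 FPKM in tic-2 and at 109, 128 and 153 FPKM in Col-0 at postdusk. At predawn it was at 18.1, 60.8 and 67.0 FPKM in tic-2 and at 46.0, 56.7 and 55.7 FPKM in Col-0. Library A of tic-2 at predawn stood far below the other predawn libraries. AOC1 rose 2.48-fold in tic-2 and 2.46-fold in Col-0 at postdusk over predawn. Without that library the log2 time effect in tic-2 was 0.90, against 1.49 with it, and was called both times. The log2 genotype difference at predawn was 0.28 without that library, against -0.31 with it, and was called neither time. The call of the time effect in Col-0 (limma adjusted p 0.0174) was lost without library A of Col-0 at predawn (limma adjusted p 0.0617) or library C of Col-0 at postdusk (limma adjusted p 0.0639). The sum of 10 root marker genes was 185 FPKM in that tic-2 library A, against 111 and 97.1 FPKM in the other two of its group. The sum of 6 green-tissue marker genes was also highest in that library, at 13237 FPKM against 11453 and 12784 FPKM. The part of either marker sum in the AOC1 value was not tested.

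AOC3 (AT3G25780, chr3:9409160-9411090) was the lowest of the 4 cyclase genes in every group. It was at 4.42, 7.26 and 7.39 FPKM in tic-2 and at 3.59, 8.36 and 5.76 FPKM in Col-0 at postdusk, and at 3.77, 4.84 and 4.22 FPKM in tic-2 and at 5.71, 3.66 and 4.97 FPKM in Col-0 at predawn. All 4 groups overlapped, and neither time nor genotype was called. AOC4 (AT1G13280, chr1:4547388-4548894), which lies on another chromosome, was at 26.1, 28.2 and 33.3 FPKM in tic-2 and at 34.2, 34.7 and 34.0 FPKM in Col-0 at postdusk. Its levels at predawn were 30.1, 33.3 and 34.9 FPKM in tic-2 and 33.1, 28.0 and 29.5 FPKM in Col-0. AOC4 spanned the least of the 10 members. Without library C of tic-2 at postdusk it was called lower at postdusk than at predawn in tic-2 (log2 fold change -0.26, limma adjusted p 0.0475). Its postdusk libraries were lower in tic-2 than in Col-0 without overlap, yet the log2 fold change of -0.23 was not called (limma adjusted p 0.104).

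AOC2 held most of the cyclase transcripts at postdusk and a smaller part at predawn. At postdusk AOC2 made up 71.7 ± 2.36% of the summed cyclase FPKM in tic-2 and 77.2 ± 1.89% in Col-0. At predawn it made up 29.4 ± 4.09% in tic-2 and 15.1 ± 2.58% in Col-0 (SD, n = 3 each). AOC1 made up 21.9 ± 2.03% in tic-2 and 17.3 ± 0.831% in Col-0 at postdusk, and 37.9 ± 12.8% in tic-2 and 50.9 ± 3.10% in Col-0 at predawn. These shares are descriptions and carry no test of their own.

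**Figure D3:**
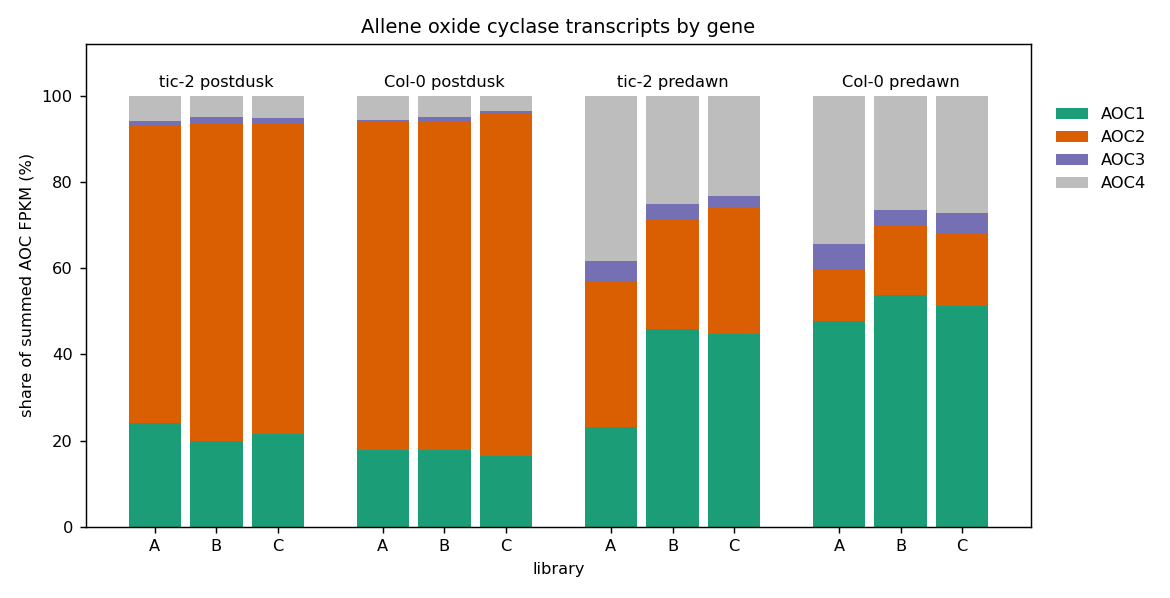
Share of the summed FPKM of the 4 allene oxide cyclase genes taken by each gene, in percent, 1 bar per library (A, B, C) in the 4 groups. AOC2 takes the largest part of every postdusk bar; at predawn its part is larger in the tic-2 bars (29.4% on average) than in the Col-0 bars (15.1%).

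The 3 neighbouring cyclase genes are similar in sequence, and how reads that match several genes were handled is not given in the sources used here. Coding sequences matched at 90.3% of aligned bases between AOC1 and AOC2, 82.7% between AOC1 and AOC3 and 82.4% between AOC2 and AOC3. Of all windows of 50 exon bases of AOC1, 0% occurred in AOC2 and 2.10% in AOC3, and of 100 bases 0% did in any pair. Counted as 1 feature, AOC1, AOC2 and AOC3 rose at postdusk over predawn by 2.65 in tic-2 and 3.26 in Col-0 on the log2 scale. The genotype difference of this sum was 0.17 at predawn (limma adjusted p 0.7) and -0.45 at postdusk (limma adjusted p 0.246), so the predawn difference of AOC2 was not seen in the sum. The sum also holds AOC1, which was at 18.1, 60.8 and 67.0 FPKM in tic-2 at predawn, so it is no test of AOC2 alone. No other annotated gene overlapped any of the 10 members.

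OPR3 (AT2G06050, chr2:2359114-2362375), the peroxisomal OPDA reductase, was at 60.2, 59.5 and 89.0 FPKM in tic-2 and at 53.2, 64.6 and 57.3 FPKM in Col-0 at postdusk. At predawn it was at 26.8, 25.0 and 26.6 FPKM in tic-2 and at 14.7, 15.7 and 16.2 FPKM in Col-0. The predawn libraries of the genotypes were far apart and tight, and OPR3 was 1.68-fold higher in tic-2 there (log2 fold change 0.72, SE 0.14, 95% confidence interval 0.41 to 1.02, limma adjusted p 0.00229). At postdusk the genotypes overlapped (log2 fold change 0.23, limma adjusted p 0.229). OPR3 rose 2.66-fold at postdusk over predawn in tic-2 and 3.76-fold in Col-0.

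JAR1 (AT2G46370, chr2:19033586-19036683), the enzyme that makes jasmonoyl-isoleucine, was at 28.6, 26.1 and 29.5 FPKM in tic-2 and at 27.8, 28.9 and 28.8 FPKM in Col-0 at postdusk. Predawn values were 24.5, 27.5 and 22.2 FPKM in tic-2 and 20.5, 21.7 and 23.9 FPKM in Col-0. It rose 1.29-fold at postdusk in Col-0 (limma adjusted p 0.0101), and its change in tic-2, a ratio of means of 1.14, was not called (limma adjusted p 0.155). The difference between these time effects was not called (limma adjusted p 0.417).

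Library C of tic-2 at postdusk was the highest of its group for 10 of 10 members, as for 36.1% of all tested genes, and for 11 of 16 genes of jasmonate signalling and response. Without it, the count of members called lower in tic-2 at postdusk was 4, namely LOX2 (log2 fold change -1.25), LOX3 (-0.64), LOX4 (-1.30) and AOC4 (-0.33), with limma adjusted p of 0.00117, 0.0174, 0.0119 and 0.0259. Leaving out library C of tic-2 at both times gave the same 4 members, an alternative chosen after the data were seen. The shares of all tested genes called in these fits are not given here, so the count of 4 is not read as a result about the members. LOX2 was called lower with and without this library. Library A of tic-2 at predawn was the lowest of its group for 7 of 10 members, as for 35.3% of all genes, and AOC2 and OPR3 were called at predawn whichever 1 library was left out.

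**Figure D4:**
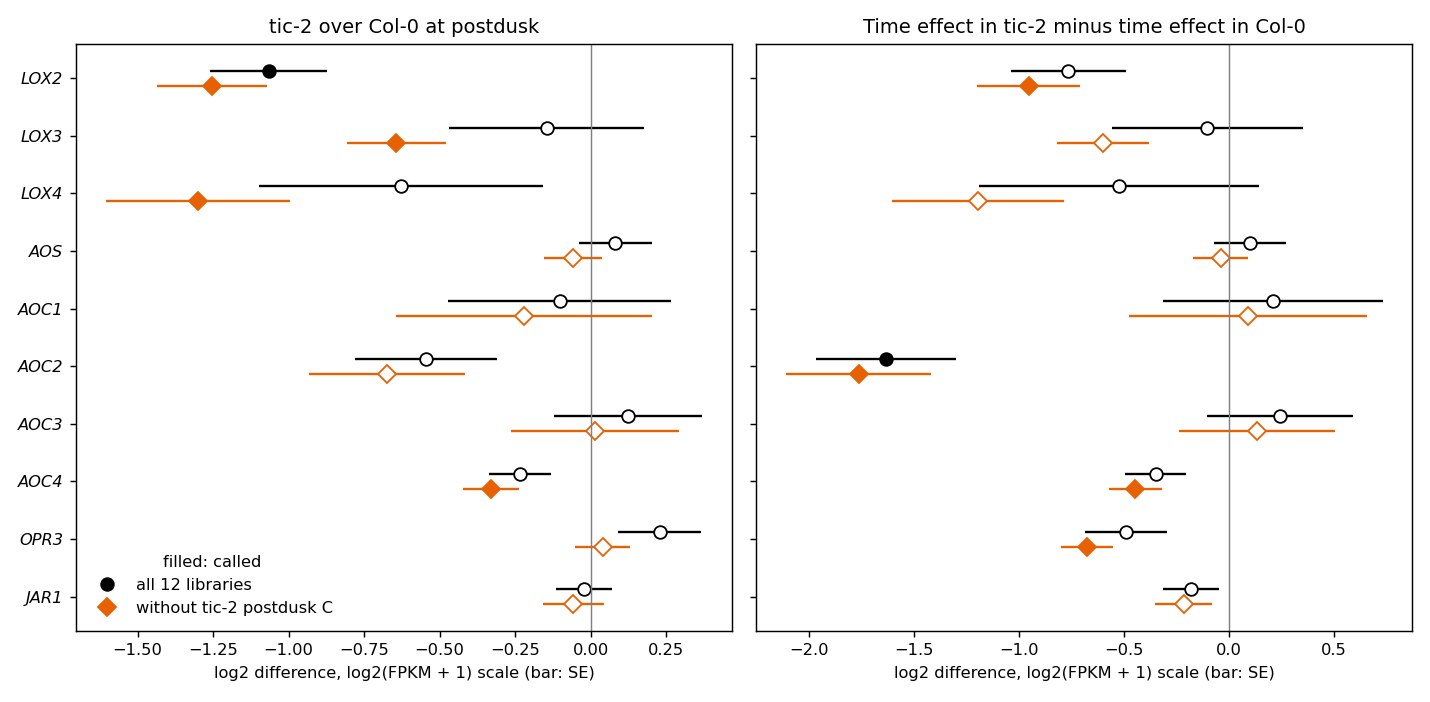
Log2 differences of the 10 members with all 12 libraries (black circles) and without library C of tic-2 at postdusk (orange diamonds), bars showing SE and filled symbols a limma adjusted p under 0.05; left, tic-2 over Col-0 at postdusk; right, the time effect in tic-2 minus that in Col-0. Leaving out that library fills LOX3, LOX4 and AOC4 on the left and LOX2, AOC4 and OPR3 on the right, all below 0.

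At postdusk the median log2 fold change of all tested genes between the genotypes was -0.12 as deposited, -0.01 after median-of-ratios rescaling and -0.04 after quantile normalization. Higher calls in tic-2 made up 32.9%, 57.1% and 50.7% of all calls under these scalings, and LOX2 was called lower at -1.07, -0.94 and -1.07. Among calls of a differing time effect the higher ones made up 45.9%, 60.4% and 57.8%, and among calls of the time effect in Col-0 61.1%, 52.3% and 50.1%. The direction of AOC1 and JAR1 at postdusk, neither called, flipped to higher in tic-2 under median-of-ratios rescaling, and that of JAR1 also under quantile normalization. Summed levels of 6 green-tissue marker genes were 16498 to 18523 FPKM in tic-2 and 13934 to 14798 FPKM in Col-0 at postdusk, and 11453 to 13237 FPKM in tic-2 and 17305 to 18843 FPKM in Col-0 at predawn, with none of the 6 genes at 0. Those of 10 root markers were 83.2 to 99.2 FPKM in tic-2 and 55.8 to 126 FPKM in Col-0 at postdusk, and 97.1 to 185 FPKM in tic-2 and 94.0 to 140 FPKM in Col-0 at predawn. Of the green-tissue genes 3 of 6 were called higher in tic-2 at postdusk and 4 of 6 lower at predawn, and of 9 root genes tested 1 was called higher at each time. The part of these markers in the members' differences was not tested.

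Ordered by FPKM, which is per length, LOX2 and AOC2 were the highest members at postdusk in both genotypes and overlapped each other. AOC2 ranked first in tic-2 at postdusk, at 399 ± 83.3 FPKM, before LOX2 at 309 ± 85 FPKM, while in Col-0 LOX2 at 631 ± 32.3 FPKM ranked before AOC2 at 585 ± 142 FPKM. At predawn LOX2 and AOC1 ranked first and second in both genotypes and overlapped. AOC2 ranked behind AOS in tic-2 at predawn, at 34.7 ± 8.87 FPKM, overlapping AOS and AOC4, and behind JAR1 in Col-0, at 15.7 ± 3.53 FPKM, overlapping OPR3 (SD, n = 3 each). LOX3 and LOX4 were the lowest members at predawn in both genotypes.

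For the 4 members of widest span, the tested genes with the most similar pattern over the 12 libraries were found by the mean absolute difference of their centred log2(FPKM + 1) values. For AOC2 they were AT1G07050 (0.24), AT5G23240 (0.36) and NUDT24 (0.43), and the nearest member was LOX2 at rank 24. For LOX2 they were CORI3 (0.25), SZF1 (0.28) and AT2G16660 (0.30), and the nearest member was LOX4 at rank 21. For LOX4 the nearest gene of all was LOX3 (0.29), followed by WRKY18, GTR1 and EP1. For LOX3 they were GTR1 (0.22), RK2 (0.26) and HSP90.1 (0.26), with LOX4 at rank 6. LOX3 and LOX4 were thus the only pair of the 4 that stood among each other's 10 nearest genes.

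The rest of the pathway was described with 5 lists of 54 further genes, of which 47 were tested, 5 were below the filter on low values and 2 were not analysed here. Over all tested genes 9.71% were called higher and 19.8% lower in tic-2 at postdusk, and 13.1% higher and 14.6% lower at predawn. The first list held genes of linolenic acid supply and lipoxygenases other than the members. Of 7 such genes tested, 2 rose and 0 fell in tic-2 at postdusk (FAD3 and LOX5), and 2 rose and 3 fell at predawn. FAD8, a plastid desaturase that makes linolenic acid, was at 53.5 ± 8.22 FPKM in tic-2 and 45.9 ± 3.48 FPKM in Col-0 at postdusk, and at 6.12 ± 0.717 FPKM in tic-2 and 18.5 ± 1.14 FPKM in Col-0 at predawn (SD, n = 3 each). It fell in tic-2 at predawn by 1.46 on the log2 scale (limma adjusted p 4.42e-06), with its relative FAD7 (-0.81) and the lipoxygenase LOX1 (-0.56), while the desaturase FAD3 of the endoplasmic reticulum (0.81) and LOX5 (0.50) rose. LOX1 was close to the threshold there (limma adjusted p 0.0468), and the predawn values of LOX1 and LOX5 were not put through the alternative fits. At postdusk FAD3 had a log2 fold change of 0.52 and LOX5 of 0.44. LOX5 lost its call at postdusk without library C of tic-2 (limma adjusted p 0.0724), library A of Col-0 (limma adjusted p 0.0844) or library C of Col-0 (limma adjusted p 0.0654) at that time.

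The next list held 13 genes of plastid export, peroxisome import and beta-oxidation, processes that lie between AOC and JAR1. The part of each gene in jasmonate synthesis was not tested. In tic-2, 1 rose and 4 fell at postdusk, and 4 rose and 3 fell at predawn. The acyl-CoA oxidase ACX4 was at 62.0 ± 7.56 FPKM in tic-2 and 49.5 ± 1.71 FPKM in Col-0 at postdusk, and at 128 ± 12 FPKM in tic-2 and 76.7 ± 2.37 FPKM in Col-0 at predawn (SD, n = 3 each). The thiolase KAT2 changed in opposite directions, with log2 fold changes of -0.41 at postdusk and 0.58 at predawn, while ACX5 fell at both times (-0.39 at postdusk and -0.27 at predawn). The other genes that fell at postdusk were MFP2 (-0.35) and CTS (-0.34). At predawn KAT1 (-0.62) and JASSY (-0.37) also fell, and ACX2 (0.37) and ACX1 (0.27) rose with ACX4 (0.73). The postdusk call of ACX4 (log2 fold change 0.31) was lost without library C of tic-2 (limma adjusted p 0.0892) or any 1 library of Col-0 at that time (limma adjusted p 0.0627 to 0.1). That of KAT2 was lost under median-of-ratios rescaling (limma adjusted p 0.0515).

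Of 4 genes of side branches, 0 were called between genotypes at postdusk and all 4 at predawn. OPR1 and OPR2, cytosolic relatives of OPR3, were higher in tic-2 at predawn, by 1.18 and 1.26 on the log2 scale. HPL1, named for hydroperoxide lyase, was at 10.7 ± 1.41 FPKM in tic-2 and 12.2 ± 0.704 FPKM in Col-0 at postdusk, and at 1.31 ± 0.418 FPKM in tic-2 and 5.28 ± 0.552 FPKM in Col-0 at predawn (SD, n = 3 each). Enzyme activity was not measured. HPL1 fell by 1.45 on the log2 scale in tic-2 at predawn, and the methyltransferase JMT fell by 1.21. Of 7 catabolism genes, 0 were called lower in tic-2 at either time, and 4 were called higher at postdusk, where 9.71% of all tested genes were, namely CYP94C1 (1.2), IAR3 (0.50), ILL6 (0.49) and CYP94B1 (0.56). CYP94C1 passed the filter only through tic-2 at postdusk, the group where it is high, which favours its call. It is therefore no support for a rise of the list, and the count of 4 includes it. At predawn 2 of the 7 were called higher, where 13.1% of all tested genes were, namely ST2A (2.06) and ILL6 (1.03). CYP94C1 oxidises jasmonoyl-isoleucine, IAR3 and ILL6 cleave it, and ST2A is a sulfotransferase for hydroxylated jasmonate. The postdusk call of IAR3 was lost without library B of Col-0 (limma adjusted p 0.0501), and that of ILL6 without library C of Col-0 (limma adjusted p 0.0564).

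Of 16 genes of jasmonate signalling and response, 6 rose and 1 fell in tic-2 at postdusk, and 4 rose and 2 fell at predawn. Those that rose were mostly JAZ genes, the repressors that jasmonate removes, as are most of the 16 genes of this list. JAZ9 was at 151 ± 57.1 FPKM in tic-2 and 45.1 ± 2.44 FPKM in Col-0 at postdusk (SD, n = 3 each, log2 fold change 1.66), JAZ6 rose by 1.11 there, and at predawn JAZ2 (0.96), JAZ1 (0.83), JAZ6 (0.81) and JAZ12 (0.28, limma adjusted p 0.0419) rose. MYC4, a transcription factor of jasmonate response, rose at postdusk (0.53) and fell at predawn (-0.82). The gene that fell at postdusk was VSP2, a storage protein long used as a jasmonate marker, which is named here after its values were seen. It averaged 126 ± 90.2 FPKM in tic-2 and 493 ± 159 FPKM in Col-0 at postdusk, and 8.82 ± 3.38 FPKM in tic-2 and 50.2 ± 14.6 FPKM in Col-0 at predawn (SD, n = 3 each). Its log2 fold change was -2.33 at postdusk (limma adjusted p 0.0135) and -2.41 at predawn (limma adjusted p 0.01). The postdusk call of VSP2 was lost when only the postdusk libraries were fitted (limma adjusted p 0.0509). Its postdusk log2 fold change was -1.44 without library A of tic-2 at postdusk and -3.77 with array weights, and it was called in both. Genes of close pairs such as FAD7 and FAD8, OPR1 and OPR2 or VSP1 and VSP2 carry the same doubt about shared reads as the cyclases.

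Genes of every list were also called between postdusk and predawn, where 18.5% of all tested genes were called higher and 19.4% lower at postdusk in tic-2, and 22.7% higher and 14.4% lower in Col-0. In the substrate list FAD8 and FAD7 rose and FAD3 fell of 7 in tic-2, while FAD8 rose and FAD3 fell in Col-0. FAD8 rose by 2.93 in tic-2 and 1.26 in Col-0 on the log2 scale. In the list of export, import and beta-oxidation 3 of 13 rose (KAT1, KAT5 and OPCL1) and 4 fell (ACX4, ACX1, ACX2 and ACX5) in tic-2, and 7 rose and 2 fell (ACX4 and JASSY) in Col-0. OPCL1, a peroxisomal ligase that activates the OPR3 product, rose by 1.19 in tic-2 and 2.16 in Col-0. Of the 4 side-branch genes HPL1, JMT and OPR1 rose in tic-2, while OPR1, OPR2 and HPL1 rose and JMT fell in Col-0. In the catabolism list 5 of 7 rose (JOX2, IAR3, CYP94C1, CYP94B1 and JOX3) and 2 fell (ST2A and ILL6) in tic-2, and JOX2 rose and ST2A fell in Col-0. CYP94C1 passed the filter only through tic-2 at postdusk, and JOX3 could not have passed it without that group. JOX3 averaged 2.41 FPKM there, against 0.576 in tic-2 at predawn, 0.929 in Col-0 at postdusk and 0.729 in Col-0 at predawn. The rises of CYP94C1 and JOX3 in tic-2 are therefore no support for a rise of the list. The ST2A call in Col-0 was lost without library A (limma adjusted p 0.0739) or B (limma adjusted p 0.0551) at predawn or library A at postdusk (limma adjusted p 0.0616), and with a pseudocount of 5 (limma adjusted p 0.0595). In the signalling list 8 of 16 rose and 0 fell in tic-2, and 7 rose and 2 fell (MYC4 and COI1) in Col-0. JAZ1 rose by 1.42 in tic-2 and 2.14 in Col-0, and VSP2 by 3.33 in tic-2 and 3.25 in Col-0. The VSP2 value in tic-2 was 4.22 without library A of tic-2 at postdusk and 1.70 with array weights. The lists' time effects share their libraries with those of the members and are given beside them, with no test between lists.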

How the data were processed

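The deposited table holds FPKM values per gene in 12 columns, which the authors made from directional libraries of DNase-treated total RNA, per the labels' protocols. TopHat, TopHat2, edgeR and the build TAIR10 are named in the submitters' processing notes, without role or version. How reads shared by several genes were treated is not given in the sources used here. Columns were assigned to groups by the genotype and ZT in their names, and the description of 6 samples disagrees with their title, which was followed.

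The filter kept the 19274 genes that reached an FPKM of 1 in 3 or more libraries and removed 6455. Differences were fitted on log2(FPKM + 1) in limma 3.58.1 (R 4.3.3) as 4 group means with a mean-variance trend and Benjamini-Hochberg adjustment over all genes, called under 0.05. The fold changes are on that scale and understate changes of low genes; ratios are of mean FPKM. The script was tested on simulated data. FPKM times RefSeq TAIR10.1 exon length gave whole reads, to within 0.05 reads, for 99.5% to 99.6% of values in each library, from which depth was taken, and limma's voom on these reads was an alternative.

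The members and lists were chosen with earlier results of these data known. From each list the called genes with the smallest adjusted p, up to 3 per comparison, are named, and the others named were chosen after their values were seen. The alternatives covered the members, the genes named by that rule in those comparisons, and VSP2 where called. Other named values of the lists were not put through them. The alternatives tried were other pseudocounts, filters and scalings, array weights, a block by letter, the contrast's own groups only, cyclase genes summed and single libraries left out.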

Additional observations from a re-analysis of the deposited data

Results flagged for a closer look

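The rule applied here picks results whose effect under the same contrast differs between groups, here the effect of time, postdusk over predawn, in tic-2 minus that in Col-0, tested as an interaction in limma with adjustment over all tested genes. Of the 10 members AOC2 alone met it, with a log2 difference of -1.63 (SE 0.33, limma adjusted p 0.00553), since it rose 11.5-fold in tic-2 and 37.3-fold in Col-0.

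The other 12 genes picked belong to the further jasmonate lists. Over all tested genes 7.28% were called with a higher and 8.59% with a lower time effect in tic-2. A higher one was found for the desaturases FAD8 (1.67, limma adjusted p 2.80e-05) and FAD7 (1.02, limma adjusted p 0.00105). It was also found for HPL1 (1.27, limma adjusted p 0.000863) and JMT (1.71, limma adjusted p 0.00300), and for CYP94C1 (1.31, limma adjusted p 0.0343). Among signalling genes it was found for MYC4 (1.35, limma adjusted p 0.000172) and JAZ9 (1.76, limma adjusted p 0.00237). A lower one was found for ST2A (-2.09, limma adjusted p 0.000513), OPR2 (-1.11, limma adjusted p 0.00933) and OPR1 (-0.98, limma adjusted p 0.0328). The beta-oxidation genes KAT2 (-0.99, limma adjusted p 0.000501) and AIM1 (-0.68, limma adjusted p 0.0304) also had a lower one. The calls of AIM1 and CYP94C1 were lost in most of the fits that left out 1 library. OPR1 was not put through the alternative fits. CYP94C1 passed the filter only through tic-2 at postdusk, which favours such a call.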

How the results depend on the processing

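Of 461 alternatives to the 19 called results of single members, 457 kept the call and the direction. Leaving out a library outside the contrast, the block by letter and the fit of the contrast's own groups leave the estimate unchanged. Those fits could change the call but not the direction. The exceptions were AOC1 in Col-0 over time without library A at predawn or C at postdusk, and the predawn value and the interaction of AOC2 once AOC1, AOC2 and AOC3 were summed (0.17 and -0.62). No called member result reversed. The number of members called at postdusk was 2 with a replicate block by letter, 5 with array weights, 4 without both tic-2 libraries lettered C and 1 to 4 leaving out 1 library. The number called for the interaction was 2 with the replicate block, 6 with array weights, 4 without both libraries lettered C and 1 to 4 leaving out 1 library. Leaving out both libraries lettered C was chosen after seeing the data. For the block and the fits with libraries left out, the shares of all tested genes called are not given here. Those counts are therefore not read as results about the members. Array weights called 9532 genes at predawn, 10443 at postdusk, 7954 for the interaction and 12164 over time in tic-2, against 5334, 5686, 3060 and 7304 without weights. Limma's voom on recovered reads called 5324 genes at predawn, 5832 at postdusk, 2967 for the interaction, 7360 over time in tic-2 and 7133 over time in Col-0, and as many members as the FPKM fit in each comparison. The weights ran from 0.228 for library C of tic-2 at postdusk to 7.55 for library A of that group.

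Same-lettered libraries of different groups had correlations of deviations between -0.327 and 0.206. These correlations over all tested genes cannot decide whether a letter marks a shared planting or harvest. The replicate block called AOC2 at postdusk (limma adjusted p 0.00276) and the LOX2 interaction (limma adjusted p 0.0184).

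Uncalled member values that changed sign follow, as log2 differences, and the cause was not tested. With median-of-ratios rescaling they were AOS at predawn (0.0041) and AOC1 (0.0222) and JAR1 (0.0994) at postdusk, and with quantile normalization JAR1 at postdusk (0.0601). With array weights they were LOX4 (0.0412), AOS (0.0242), AOC1 (0.0279) and AOC3 (0.0321) at predawn, AOS (-0.0914) and AOC3 (-0.17) at postdusk, AOS (-0.12), AOC1 (-0.29) and AOC3 (-0.20) in the interaction and AOC3 over time in tic-2 (-0.0102). Without both libraries lettered C they were AOS at postdusk (-0.0592) and in the interaction (-0.0292). With the 3 cyclases summed, the sum's value had the opposite sign to AOC1 and AOC3 at predawn (0.17) and in the interaction (-0.62), and to AOC3 at postdusk (-0.45). Leaving out 1 library gave at predawn -0.19 to 0.050 for LOX3, -0.21 to 0.0752 for LOX4, -0.0935 to 0.0341 for AOS and -0.64 to 0.28 for AOC1. At postdusk it gave -0.64 to 0.17 for LOX3, -0.0592 to 0.18 for AOS, -0.22 to 0.0205 for AOC1, -0.14 to 0.37 for AOC3 and -0.0583 to 0.0276 for JAR1. In the interaction it gave -0.60 to 0.22 for LOX3, -0.0395 to 0.20 for AOS, -0.38 to 0.54 for AOC1 and -0.0205 to 0.49 for AOC3, and over time in Col-0 -0.0361 to 0.48 for AOC3. The interaction could not be fitted on the groups of a single contrast, since it needs all 4.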
